A study of Triticum aestivum with 12 samples.

Results

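The loci described here lie in the distal arms of the 7 chromosomes of the wheat A subgenome, 1A to 7A. A locus is a section of the genome that was covered by reads of methylated DNA in at least 1 of 12 libraries. It was counted as distal where its midpoint fell in the outer 15% of the chromosome length at either end, without the last 1 Mb, and the chromosome length was taken as the largest locus end. This rule used position only and gave 1152308 of the 11509120 loci in the data (10.01%), on 14 arm ends with a span of 1478.6 Mb. The counts came from MeDIP-seq, in which an antibody enriches DNA fragments that carry 5-methylcytosine (5mC) before sequencing, so a count measures how often methylated fragments of a locus were read and is not a percentage of methylated cytosines. The leaves were from the winter wheat variety Mv Béres grown hydroponically. The 4 groups were WP (W light with 0.5 mM PUT), BP (B light with 0.5 mM PUT), BC (B light without PUT) and WC (W light without PUT). W light held 32.32% and B light 82.14% blue light, and PUT, the polyamine putrescine, was given for 7 days. The study describes the 3 libraries of a group as independent biological repetitions. It also states that 1 of its 3 independent experiments was used for the methylation profile. Spread between experiments therefore does not enter the tests below.

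Bread wheat carries the A, B and D subgenomes of 3 ancestors side by side. In wheat chromosomes genes and meiotic recombination are concentrated towards the ends of the arms, together with fast-evolving families such as disease resistance genes and seed storage proteins, while the interior is filled with retrotransposons. Plants methylate cytosines in the CG, CHG and CHH contexts. Transposons are methylated densely in all contexts, many expressed genes carry methylation mainly at CG within the gene body, and the 5mC antibody does not separate these contexts. Positions are given on the IWGSC CS RefSeq v2.1 assembly, with "low" and "high" for the low- and high-coordinate end of a chromosome. The annotation used gives whole genes without exons, introns, UTRs or strands, so that a locus could be placed only inside, across the edge of, or outside a gene.

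Total counts were 15812048 to 21355140 reads per library, of which 1319158 to 1741698 fell in the distal A arms. Between 13.6% and 38.9% of all loci had a count in a library. A single library stood apart from its group. WC replicate 1 had the smallest total and the smallest covered share, and its TMM factor, the scaling factor of the count test, was 1.49 where the other 11 lay between 0.820 and 1.07. Its own value is therefore given beside the results below where it moves with them, and its part in those results was not tested.

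Reads became sparse towards the chromosome ends. Reads were scaled to RPM, reads per 1000000 nuclear reads of a library. The mean over the 12 libraries was 39.2 RPM per Mb in the outermost 3% of the length, 47.6 at 3 to 6%, 58.1 at 6 to 9%, 60.4 at 9 to 12% and 64.1 at 12 to 15%. It reached 82.4 at 45 to 48% of the length, in the middle of the chromosomes. Protein-coding genes ran the other way, with 15.5 genes per Mb in the outermost 3%, 8.21 at 12 to 15% and 2.73 at 48 to 50%. The loci themselves also thinned out, from 839 per Mb at 12 to 15% to 633 per Mb in the outermost 3%, and their median length there was 424 bp.

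**Figure D1:**
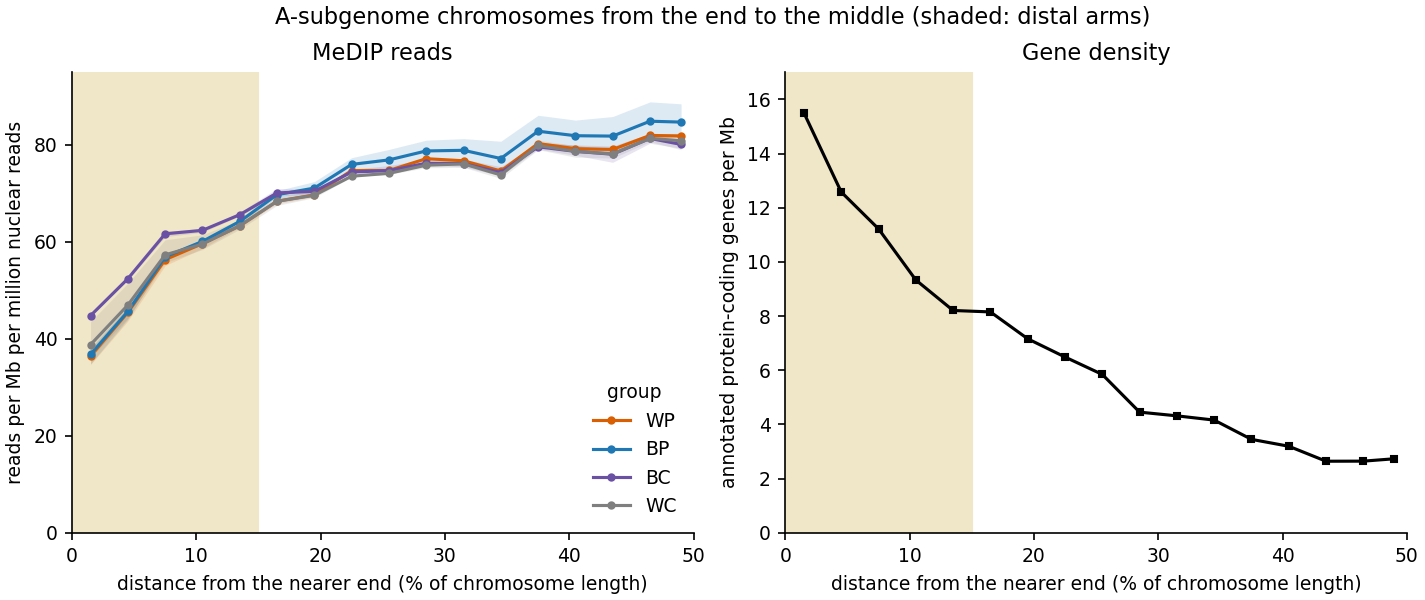
Left, MeDIP reads in RPM per Mb against the distance from the nearer chromosome end in % of the length, for the A-subgenome chromosomes (points, mean of 3 libraries of WP, BP, BC or WC; bands, lowest to highest library). Right, annotated protein-coding genes per Mb. In the shaded distal arms the mean over the libraries runs from 39.2 to 64.1 RPM per Mb while gene density runs from 15.5 to 8.21 genes per Mb, and in the outermost 3% the BC band (44.7 to 44.9) lies above those of the other groups.

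Distal A loci were shorter and shallower than those of the interior of the same chromosomes. They numbered 779 per Mb against 843 per Mb in the interior, had a median length of 465 bp against 545 bp, and covered 50.6% of their span against 64.8%. A count in 1 library only was found at 37.7% of distal A loci and at 30.1% of interior loci. Loci entered the count test if 2 or more of the 3 libraries of some group had over 10 reads. This filter kept 33404 distal A loci (2.90%), 22.6 per Mb, against 5.07% and 42.7 per Mb in the interior. Even the loci kept were shallow, as 74.0% had a mean count under 10 and 14.6% had a count in all 12 libraries.

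Every library held fewer reads per Mb in the distal A arms than in the A interior. They were 52.4 ± 1.02 RPM per Mb in WP, 52.9 ± 0.66 in BP, 57.5 ± 0.33 in BC and 53.3 ± 2.68 in WC (SD, n = 3 each). The order with BC highest was shared by the distal arms of the B subgenome, with means of 50.01 RPM per Mb in WP, 49.9 in BP, 54.96 in BC and 51.95 in WC, and of the D subgenome, with 61.9 in WP, 60.15 in BP, 65.1 in BC and 62.6 in WC. The ratio of distal to interior reads per Mb averaged 0.704, a log2 ratio of -0.51 ± 0.08 (SD, n = 12 libraries), below 0 in 12 of 12 libraries (exact sign-flip permutation test over the libraries, two-sided p = 0.000488, the smallest p it allows). Against the distal arms of the D subgenome the log2 ratio was -0.21 ± 0.03, lower in 12 of 12 libraries, with the same p. Against those of the B subgenome it was 0.06 ± 0.03, higher in 12 of 12 libraries with the same p, but this small difference turned to -0.07 (exact sign-flip permutation test, p = 0.00146) when only loci kept by the filter were counted.

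The distal A arms held much of the annotated gene content of the subgenome. Of its 33136 protein-coding genes 16751 (50.6%) lay in these arms, as did 3969 of 6159 pseudogenes (64.4%), 930 of 1059 rRNA genes (87.8%) and 591 of 1075 tRNA genes. At least 1 locus overlapped 15360 of the 16751 protein-coding genes, but only 1061 of them (6.33%) overlapped a locus deep enough for the test. Protein-coding genes were overlapped by 5.596% of distal A loci and by 3.54% of those tested, against 2.73% and 1.70% in the A interior.

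Most of the rRNA genes, 848 of 930, formed 1 array on 5A at positions 63057452 to 63871972 (814.5 kb), and 80 lay at the low end of 1A. The 5A array held 671 loci, of which 19 were tested. Its RPM per Mb ranged from 54.3 to 67.02 in WP, from 41.5 to 103 in BP, from 48.8 to 75.5 in BC and from 38.2 to 61.8 in WC. The 4 groups overlapped. Near-identical rRNA copies share reads, so that the count of any single locus in the array is uncertain.

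The 14 arm ends differed in depth over a range almost as wide as that between the outermost and the innermost distal bins. The mean RPM per Mb was highest at the low ends of 4A (62.4) and 3A (62.1) and the high end of 5A (61.3), and lowest at the low ends of 6A (42.8) and 7A (45.4) and the high end of 4A (46.6). Of the 2 arms of 4A, the high-coordinate one had 10.6 protein-coding genes per Mb and the low-coordinate one 8.14. The mean share of nuclear reads was higher under B than under W light at all 14 ends. These ends share their libraries, so that this is 1 observation on 12 libraries rather than 14.

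Adjusted over the 14 ends, only the low end of 4A passed. It took 0.696, 0.712 and 0.720% of nuclear reads in BP and 0.699, 0.717 and 0.7096% in BC, against 0.685, 0.693 and 0.689% in WP and 0.695, 0.692 and 0.687% in WC. Each of the 6 B light libraries lay above each of the 6 W light libraries. The means were 0.709 ± 0.0096% under B light, against 0.690 ± 0.0038% under W light (mean ± SD, n = 6 each), a difference of 0.0188 percentage points (two-sided exact permutation test, p = 0.00216, the smallest possible, adjusted p = 0.0303). With each library left out in turn the exact permutation p stayed at or below 0.00866. With only loci kept by the filter, an alternative chosen after seeing the data, the difference was 0.0134 percentage points (exact permutation test, p = 0.0866) and no longer passed.

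**Figure D2:**
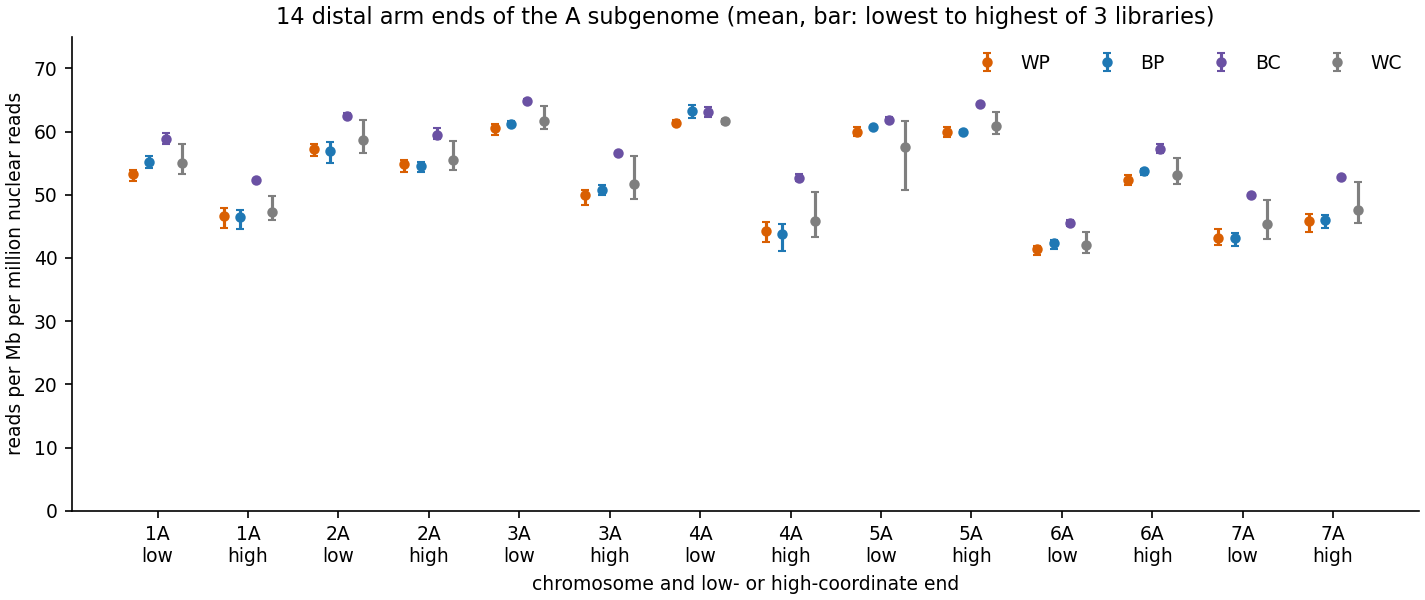
RPM per Mb at the 14 distal arm ends of the A subgenome, by chromosome and low- or high-coordinate end, in WP, BP, BC and WC (points, means; bars, lowest to highest of 3 libraries). The low end of 6A lies lowest (42.8 on average) and the low end of 4A highest (62.4), where both B light groups lie above both W light groups.

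The share of nuclear reads in the distal A arms was highest in BC. It was 7.58, 7.82 and 7.85% in WP, 7.87, 7.88 and 7.71% in BP, 8.45, 8.55 and 8.50% in BC and 8.34, 7.63 and 7.69% in WC. Every BC library lay above every other library, WC replicate 1 came next, and the other 2 WC libraries lay among WP and BP. B light libraries averaged 8.16 ± 0.38% and W light libraries 7.82 ± 0.28% (SD, n = 6 each), a difference of 0.344 percentage points that did not pass (two-sided exact permutation test, p = 0.0758, adjusted p = 0.213 over 32 library tests). Libraries with PUT averaged 7.79 ± 0.12% and those without 8.20 ± 0.42% (n = 6 each), a difference of -0.410 that did not pass either (exact permutation test, p = 0.0541, adjusted p = 0.213). Within 1 light, 3 libraries against 3 cannot give an exact p below 0.1. With PUT, BP was below BC by 0.680 percentage points without overlap, and WP was below WC by 0.140 with overlap (exact permutation test, p = 0.1 and 0.8). Without PUT, BC was above WC by 0.615 percentage points without overlap (exact permutation test, p = 0.1).

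Leaving out WC replicate 1 brought the difference between B and W light to 0.449 percentage points (exact permutation test, p = 0.0433, unadjusted). For PUT against no PUT it became -0.523 without WC replicate 2 (exact permutation test, p = 0.0195) and passed also without WC replicate 3 (exact permutation test, p = 0.0260), again unadjusted. The groups lay likewise in the outermost 3%. There the RPM per Mb were 34.7 to 37.7 in WP, 34.9 to 38.1 in BP, 44.7 to 44.9 in BC and 36.1 to 43.6 in WC. The ratio of distal to interior reads was lower with PUT than without by 0.10 on the log2 scale (-0.56 ± 0.05 against -0.46 ± 0.08, SD, n = 6 each, exact permutation test, p = 0.0346, adjusted p = 0.213), and without WC replicate 1 or without any 1 of the 3 BC libraries its p was 0.0628.

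Reads inside genes moved with the same libraries. Loci that overlapped protein-coding genes took 2.86, 3.41 and 3.75% of the distal A reads in WP, 3.70, 3.803 and 2.83% in BP, 5.61, 5.54 and 5.62% in BC and 5.48, 3.52 and 3.64% in WC. BC and WC replicate 1 lay above the other 8 libraries. In the A interior this share ran from 1.28 to 2.39%, and over all nuclear reads from 1.74 to 3.40%. Loci at tRNA genes took 0.0494 to 0.0593% of distal A reads in BC and 0.0513% in WC replicate 1, against 0.0224 to 0.0394% in the other 8 libraries. The difference in read share between B and W light was still 0.287 percentage points (exact permutation test, p = 0.0714), and that between PUT and no PUT -0.314 (exact permutation test, p = 0.0563), when every locus within 3000 bp of a protein-coding gene was left out, an alternative chosen after seeing the data.

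The share of covered distal A loci had the higher mean under B light, but the difference did not pass after adjustment over the 32 library tests. The share of distal A loci with at least 1 read was 24.2, 20.9 and 17.95% in WP, 23.8, 31.3 and 32.1% in BP, 35.4, 30.2 and 33.5% in BC and 11.8, 19.3 and 22.4% in WC. BC lay above every W light library, whereas BP replicate 1 lay below WP replicate 1. The means were 31.1 ± 3.97% under B light, against 19.4 ± 4.32% under W light (mean ± SD, n = 6 each), a difference of 11.6 percentage points (two-sided exact permutation test, p = 0.00433, adjusted p = 0.139). The distal A arms were not alone in this, as 29.0 to 40.2% of the A interior loci were covered in the B light libraries, against 13.9 to 30.3% in the W light libraries, and 27.9 to 38.9% of all loci, against 13.6 to 29.0%. In the distal A arms the difference was 8.22 percentage points with the kept loci only (exact permutation test, p = 0.0866). B light libraries also had the higher totals, 19641114 to 21355140 reads against 15812048 to 18824815 under W light, and the part of total depth in this difference was not tested. Reads per covered locus were 4.69 ± 0.53 under B light and 6.45 ± 1.70 under W light (n = 6 each, exact permutation test, p = 0.0152, adjusted p = 0.213), with 9.67 in WC replicate 1.

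**Figure D3:**
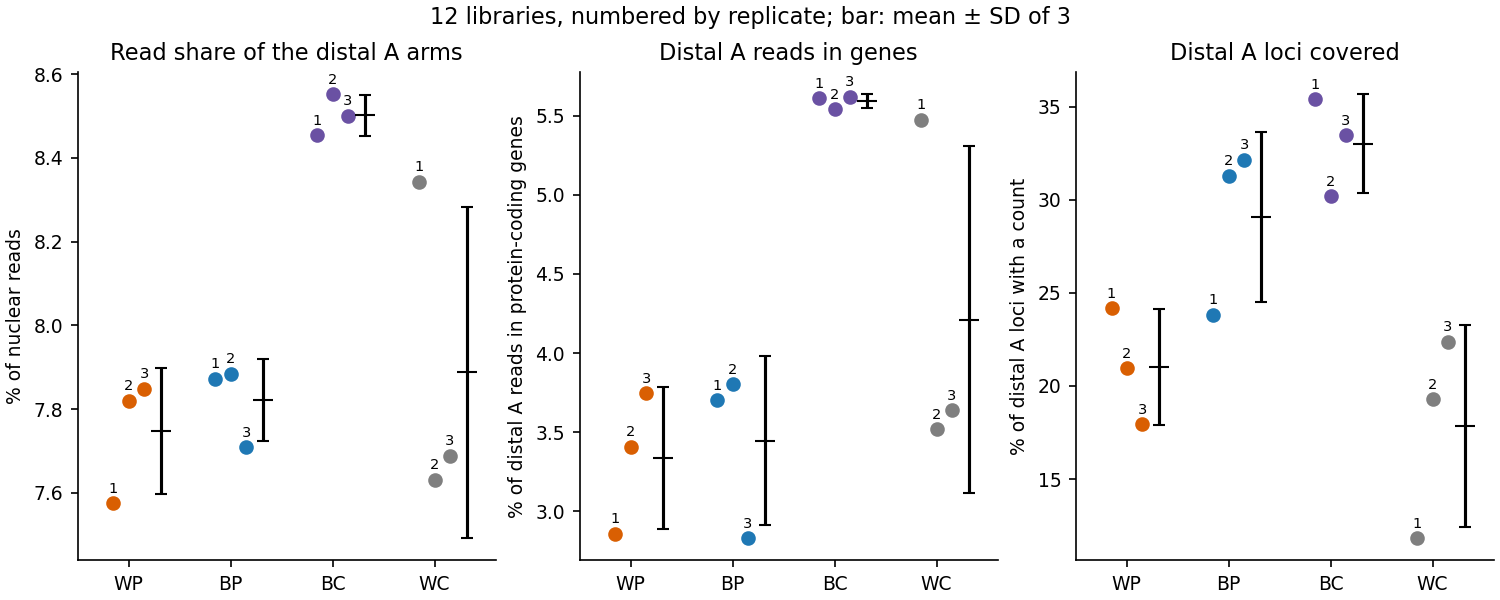
Values of the 12 libraries in WP, BP, BC and WC (points, numbered by replicate; black bar, mean ± SD of 3): share of nuclear reads in the distal A arms, share of distal A reads in protein-coding genes, and share of distal A loci with a count, each in %. In the first and second panels WC replicate 1 (8.34% and 5.48%) lies with BC, and in the last panel it is the lowest library (11.8%).

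Group differences at single loci were tested by edgeR (quasi-likelihood test, fitted over all 539307 loci kept by the filter), and a locus was called where its p before adjustment was below 0.01 and its log2 fold change lay beyond 1.5 in either direction. In this fit the spread of a locus is taken from a trend over all loci, with a common dispersion of 0.951, so that replicates of a single locus that differ strongly do not raise its p. The SE printed beside a log2 fold change comes from the same fit and has the same limit. Of the 33404 distal A loci tested, 2463 (7.37%, where 6.68% of all loci tested were) were called in at least 1 of the 6 comparisons. The comparisons share libraries, in particular those of WC, and their counts are not independent.

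BC, BP and WP were each mostly higher than WC. In BC vs WC 924 distal A loci were called higher (2.77%, where 2.36% of all loci tested were) and 56 lower (0.168%, background 0.176%). In BP vs WC 1073 were called higher (3.21%, background 3.14%) and 52 lower (0.156%, background 0.143%). In WP vs WC 445 were called higher (1.33%, background 1.25%) and 158 lower (0.473%, background 0.436%). These shares are close to those over all loci, so they are no feature of the distal A arms. The median log2 fold change over the distal A loci tested against WC was 0.25 for BC, 0.30 for BP and 0.18 for WP, beside 0.21, 0.30 and 0.17 over all loci tested.

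The medians against WC depended on the scaling, while most calls were higher under each. With library sizes alone, without TMM factors, the medians over all loci were -0.01 for BC, -0.02 for BP and 0.02 for WP, and with RLE size factors 0.22, 0.37 and 0.08. Without TMM factors the share of calls that were higher was 80.4% in BP vs WC, beside 95.4% with TMM factors, and 56.3% in WP vs WC, beside 73.8%. The calls against WC in either direction numbered 980 for BC (2.93%, background 2.54%), 1125 for BP (3.37%, background 3.28%) and 603 for WP (1.81%, background 1.69%), and without WC replicate 1 they were 718, 781 and 466. Larger changes came in BC vs WC without BC replicate 2 (525 calls) or BC replicate 3 (647), in BP vs WC without BP replicate 2 (695) or BP replicate 3 (527), and in WP vs WC without WC replicate 3 (970) or WP replicate 3 (393).

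Fewer distal A loci differed between the other groups, except that WP was lower than both B light groups. In WP vs BC 80 were called higher (0.240%, background 0.22%) and 473 lower (1.42%, background 1.16%), and in WP vs BP 57 were higher (0.171%, background 0.144%) and 443 lower (1.33%, background 1.39%). In BP vs BC 62 were higher (0.186%, background 0.196%) and 67 lower (0.201%, background 0.137%). Without TMM factors the share of calls that were higher was 34.0% in BP vs BC, beside 48.1%, and 24.0% in WP vs BP, beside 11.4%. The median log2 fold change of WP vs BP over all loci was -0.13, and it was 0.03 without TMM factors and -0.28 with RLE size factors. Calls in either direction numbered 129 in BP vs BC (0.386%, background 0.333%), and 205 without WC replicate 1 or 83 without BP replicate 2. For WP vs BC they numbered 553 (1.66%, background 1.38%), and 322 without WP replicate 3 or 267 without BC replicate 2. For WP vs BP they numbered 500 (1.497%, background 1.54%), and 323 without WP replicate 3, 316 without BP replicate 2 or 174 without BP replicate 3.

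The interaction, in which the PUT effect in B light is subtracted from the PUT effect in W light, was called at 241 distal A loci in the positive (0.722%, background 0.601%) and at 136 in the negative direction (0.407%, background 0.411%). In edgeR's quasi-likelihood test no distal A locus had an adjusted p below 0.05 for the interaction (0.000371% of all loci tested had). The smallest adjusted p was 0.961. DESeq2 and edgeR's likelihood ratio test gave no such locus either. Before adjustment, the first of these tests put 1844 of the 33404 distal A loci under 0.05, beside 26298 of all 539307 loci tested. These shares were not compared by a test, and chance alone also puts loci under this threshold. The 377 calls (1.13%, background 1.01%) became 622 without WC replicate 3 and 248 without BP replicate 2. The positive share was 63.9%, and 51.6% with RLE size factors, under which the median over all loci was -0.07 in place of 0.08.

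**Figure D4:**
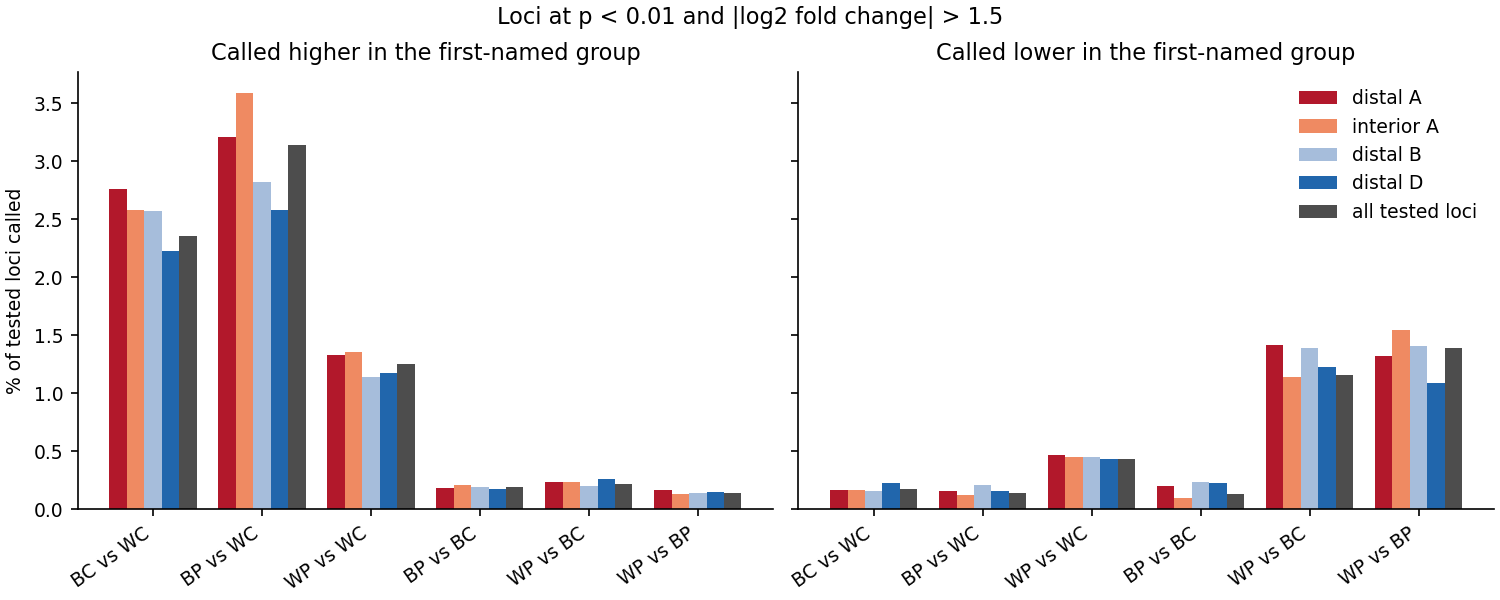
Share of tested loci called higher (left) or lower (right) in the first-named group of each comparison, in %, for distal A, interior A, distal B and distal D loci and for all loci tested (bars, calls at p below 0.01 and a log2 fold change beyond 1.5). The distal A bars stay close to the bars of all loci, for example 3.21% beside 3.14% called higher in BP vs WC.

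Most called distal A loci were present in 1 group and empty in the other, which the filter and the call threshold favour. A locus can enter the test through reads in 1 group only. In each comparison and direction, between 64.6% and 86.7% of the called distal A loci had no read in the 3 libraries of the lower group. The median of the mean count in the higher group was 10.3 to 15.3 reads. Of the distal A loci called lower in BC, BP and WP vs WC, 46 of 56, 42 of 52 and 137 of 158 were empty. Over all loci tested these were 681 of 949, 580 of 773 and 2014 of 2349, and the difference was not tested. For the other comparisons and directions the share over all loci is not given, so no feature of the distal A arms is read from it. A fold against an empty group is given below as "at least" a value. It is the scaled mean of the other group divided by a floor of 3 counts over the empty group. This bound allows for counting error of the empty group only, not for that of the other group or for replicate spread. In the distal A arms 221 loci (0.662%, background 0.655%) were called higher in BC, BP and WP vs WC, and 65 (0.195%, background 0.191%) were called lower in WP vs WC, BC and BP. For BC vs WC the share called higher was 3.58% of the 3913 tested in the outermost 3% and 2.66% of the 8923 at 12 to 15%, with the lowest share, 2.42%, at 9 to 12%. For BP vs WC the share was lower in the outermost of these bins (2.99%) than in the innermost (3.45%). For WP vs WC the bins from the outside in had 1.30, 1.25, 1.40, 1.22 and 1.43%, without a steady direction. No trend was tested, and these bins were not compared with those of other arms.

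Of the distal A loci tested, 1184 lay inside or across the edge of protein-coding genes. In BC vs WC 64 of them (5.41%) were called higher, against 860 (2.67%) of the 32220 outside genes, where over all loci tested the shares were 2.96% in genes and 2.35% outside. In WP vs BC 35 (2.96%) were called lower, against 438 (1.36%) outside genes, with 1.53% and 1.15% over all loci, and in BP vs BC 8 (0.676%) against 59 (0.183%), with 0.303% and 0.134% over all loci. In BP vs WC the distal A shares called higher were 3.97% and 3.18%, where over all loci genes had the lower share (2.56% and 3.15%). In WP vs WC they were 2.03% and 1.31%, with 1.42% and 1.25% over all loci. In WP vs BP the order of the shares called lower was the opposite, with 1.01% in genes and 1.34% outside, beside 0.820% and 1.41% over all loci. These shares were not tested against each other, and BC is also the group with the highest share of its reads in genes. In all, 137 of the 1061 distal A protein-coding genes with a tested locus (12.9%) overlapped a called one, where 8.47% of such genes on all chromosomes did. So did 3 of 12 tRNA genes (25.0%, background 19.7%) and 10 of 53 rRNA genes (18.9%, background 9.15%), which share 2 called loci. The difference between these shares was not tested.

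An adjusted p below 0.05 (edgeR's quasi-likelihood test, Benjamini-Hochberg over all loci tested) was reached at 37 distal A loci. Against WC they numbered 6 for BC (0.0139% of all loci tested reached it), 26 for BP (0.059%) and 1 for WP (0.000927%). Against BC they numbered 1 for BP (0.00185%) and 9 for WP (0.0109%), and WP vs BP had 2 (0.0076%). On 2A and 6A there were 9 each, on 1A 8, on 3A 5, on 5A 4 and on 4A and 7A 1 each. Of the 37, 12 had a mean count above 100, 17 had no read in WC and 5 overlapped a protein-coding gene. The 37 loci made 45 pairs of locus and comparison, of which 33 kept an adjusted p below 0.05 with DESeq2, 24 with the likelihood ratio test and 17 without TMM factors. With 1 library left out between 16 (without WC replicate 1) and 45 (without BP replicate 1) kept it.

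The smallest p of all distal A loci belonged to a 4103 bp locus at 6A 9974949 to 9979051, which was high with PUT in both lights. It had 52, 147 and 504 reads in WP, 414, 433 and 174 in BP, 48, 39 and 117 in BC and 28, 25 and 46 in WC. Every BP library lay above every library of BC and WC, and the WP libraries were spread widely, with replicate 3 highest. BP vs WC gave a log2 fold change of 3.60 ± 0.41 (SE, adjusted p = 2.09e-13, edgeR's quasi-likelihood test), WP vs WC 2.93 ± 0.40 (adjusted p = 9.75e-08) and BP vs BC 2.06 ± 0.39 (adjusted p = 0.00659). Without WP replicate 3 the value for WP vs WC was 1.74 (edgeR, adjusted p = 0.854). BP vs BC lost its adjusted call in edgeR without BC replicate 1 (1.88, adjusted p = 1.0), BC replicate 2 (1.80, adjusted p = 0.661), BP replicate 2 (1.87, adjusted p = 0.788) or WP replicate 3 (2.07, adjusted p = 0.0797). With all libraries, BP vs BC also lost it with DESeq2 (adjusted p = 0.806) and with the likelihood ratio test (adjusted p = 0.808), and WP vs WC lost it with the likelihood ratio test (adjusted p = 0.118).

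A locus of 5445 bp close by, at 6A 9941731 to 9947175, had a like pattern. It had 80, 241 and 201 reads in WP, 332, 200 and 75 in BP, 58, 23 and 72 in BC and 9, 56 and 53 in WC. In these unscaled counts both PUT groups lay above both groups without PUT, with 75 the lowest and 72 the highest count. Scaled by library size and TMM factor as in the test, WP replicate 1 lay below BC replicate 3. In edgeR's quasi-likelihood test the log2 fold change was 2.54 ± 0.47 in BP vs WC (SE, adjusted p = 0.000986, which was 0.0995 without WC replicate 1 and 0.0673 with the likelihood ratio test) and 2.25 ± 0.46 in WP vs WC (adjusted p = 0.087). Neither locus overlapped an annotated gene, and the gene LOC123131635 (9962519 to 9968158) lies between them. Summed over the 47 loci of this stretch, the RPM were 8.93, 25.7 and 42.8 in WP, 40.5, 31.0 and 13.3 in BP, 7.93, 7.41 and 12.8 in BC and 5.25, 5.68 and 7.30 in WC. The PUT groups had the higher sums, although WP replicate 1 and BP replicate 3 lay within or near the range of BC. These sums include the 2 loci above, which held most of the reads of each PUT library here. They are therefore no separate observation, and the other loci of the stretch were not compared by group.

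A group of loci at the high end of 1A was highest in BC and lowest in WP. Its deepest tested locus, 1A 556463121 to 556465346, partly overlaps LOC123067330, annotated as photosystem II D2 protein-like, and the tRNA gene TRNAS-GCU. It had 25, 27 and 57 reads in WP, 117, 110 and 45 in BP, 176, 305 and 177 in BC and 116, 39 and 76 in WC. The BC libraries lay above all other libraries. In edgeR's quasi-likelihood test the log2 fold change was -2.98 ± 0.48 in WP vs BC (SE, adjusted p = 1.34e-05), 2.05 ± 0.46 in BC vs WC (adjusted p = 0.0507) and -1.55 ± 0.45 in BP vs BC (adjusted p = 1.0). The adjusted p for WP vs BC was 0.157 with the likelihood ratio test, and that for BC vs WC passed with DESeq2 (0.0161) and with RLE size factors (0.0216). The call for BP vs BC was lost without BC replicate 2 (-1.21) or BP replicate 3 (-1.30). The D2 protein of photosystem II is encoded by the chloroplast genome in plants. Counts of the chloroplast genome were not analysed here, and reads from near-identical copies of such a sequence cannot be told apart, so the counts of this locus are uncertain.

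Neighbours of this locus had the same order of groups. The locus 1A 556474765 to 556475917 (no gene) had 16, 46 and 29 reads in WP, 106, 58 and 33 in BP, 132, 165 and 131 in BC and 90, 20 and 21 in WC. The locus 1A 556514734 to 556515801, which partly overlaps the protein-coding gene LOC123049085, had 28, 22 and 77 reads in WP, 82, 116 and 34 in BP, 162, 221 and 148 in BC and 110, 34 and 60 in WC. At both the BC libraries were highest and WC replicate 1 was the highest WC library. In edgeR's quasi-likelihood test WP vs BC gave -2.60 ± 0.56 (SE, adjusted p = 0.0303) and -2.46 ± 0.50 (adjusted p = 0.0108), and the adjusted p went above 0.05 at the 556474765 locus without any 1 of the 6 WP and BC libraries (0.123 to 0.736) and at the 556514734 locus without any of them except WP replicate 3 (0.0691 to 0.884). With the likelihood ratio test it was 0.195 and 0.208. Over the 48 loci of the stretch, these named loci included, the summed RPM were 7.43, 10.8 and 18.1 in WP, 29.8, 23.9 and 12.2 in BP, 41.0, 56.0 and 39.0 in BC and 30.4, 10.52 and 14.3 in WC. BC and WC replicate 1 are also the libraries with the largest shares of their distal A reads in genes and at tRNA genes.

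A mean count above 100 was found at 37 distal A loci, and 21 of them were packed within 3% of the low end of 2A, at 14221247 to 22724927. These 37 deep loci had lengths of 857 to 22856 bp with a median of 8957 bp, 29 overlapped no annotated gene and 7 overlapped a protein-coding gene. Together they held 0.626 to 0.760% of the distal A reads of a library, and the 2A group alone 0.360 to 0.533%. The deepest was 2A 21623607 to 21629248 (no gene), with 1697, 1589 and 1358 reads in WP, 1736, 1007 and 339 in BP, 1035, 621 and 980 in BC and 896, 1569 and 1542 in WC. Its groups overlapped, and BP spread over its whole range. The next, 2A 16782471 to 16798791, varied less, from 933 to 1308 reads over the 12 libraries. At the high end of 2A, the locus 770692507 to 770709931 (no gene) was highest in BP. Its counts were 735, 576 and 606 in WP and 666, 734 and 879 in BP. In BC they were 526, 722 and 544, and in WC 359, 570 and 681. BP vs WC gave a log2 fold change of 0.83 ± 0.19 (SE, edgeR, adjusted p = 0.0407). This adjusted p was 0.155 with DESeq2, 0.723 with the likelihood ratio test and 0.400 without TMM factors.

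Several loci of the 2A group were higher under B light or in BC. The locus 2A 14221247 to 14231534 (no gene, 5019 bp from LOC123184270) had 352, 352 and 308 reads in WP, 348, 676 and 831 in BP, 650, 685 and 555 in BC and 344, 375 and 343 in WC. Both W light groups were tight, BC lay above them, and BP replicate 1 lay among them. In edgeR's quasi-likelihood test the log2 fold change was 1.35 ± 0.22 in BC vs WC (SE, adjusted p = 3.29e-05), 1.18 ± 0.22 in BP vs WC (adjusted p = 0.00135), -1.27 ± 0.22 in WP vs BC (adjusted p = 0.000163) and -1.10 ± 0.22 in WP vs BP (adjusted p = 0.0106). Without BP replicate 3 the values of BP vs WC and WP vs BP were 0.72 (edgeR, adjusted p = 0.175) and -0.64 (adjusted p = 1.0). The adjusted p in edgeR was also above 0.05 for BP vs WC without WC replicate 1 (0.0935), for WP vs BC without WP replicate 3 (0.0587) and for WP vs BP without WP replicates 1, 2 and 3 (0.139, 0.167 and 0.516). All 4 adjusted calls were lost with DESeq2 (adjusted p = 0.0509 to 0.118) and with the likelihood ratio test (adjusted p = 0.4934 to 0.720), and those for BP vs WC and WP vs BP also without TMM factors (adjusted p = 0.2535 and 0.293).

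The other named loci of the 2A group that passed had their highest mean count in BC as well. The locus 2A 19062365 to 19072263 had 169, 344 and 189 reads in WP, 215, 413 and 484 in BP, 360, 460 and 359 in BC and 180, 251 and 137 in WC. For BC vs WC its log2 fold change was 1.58 ± 0.28 (SE, edgeR, adjusted p = 0.000758), and without WC replicate 1, WC replicate 3 or BC replicate 2 the adjusted p in edgeR was 0.0682, 0.104 and 0.136. The locus 2A 22715971 to 22724927 had 197, 209 and 204 reads in WP, 254, 309 and 494 in BP, 414, 573 and 425 in BC and 390, 299 and 206 in WC. It was lower in WP vs BC by a log2 fold change of -1.59 ± 0.27 (SE, edgeR, adjusted p = 9.56e-05, and 0.07 without BC replicate 2). At 2A 20507513 to 20513402 the counts were 133, 144 and 75 in WP, 156, 240 and 371 in BP, 285, 372 and 285 in BC and 209, 201 and 103 in WC. There WP vs BC gave -1.79 ± 0.33 (SE, edgeR, adjusted p = 0.0013, and 0.534 without WP replicate 3). The adjusted p of these 3 comparisons was above 0.05 with DESeq2 (0.0514, 0.0648 and 0.0560) and with the likelihood ratio test (0.365, 0.497 and 0.392). None of these loci overlapped an annotated gene.

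Deep loci with BC highest lay on other arms too. The longest named locus, 1A 22963147 to 22985390 (22244 bp, no gene, 2945 bp from LOC123076735), had 213, 268 and 222 reads in WP, 257, 242 and 195 in BP, 413, 362 and 530 in BC and 172, 230 and 232 in WC. Here BC stood above the other 3 groups, which overlapped. BC vs WC gave 1.55 ± 0.29 (SE, edgeR, adjusted p = 0.00317), with an adjusted p of 0.169, 0.0733 and 0.222 without WC replicate 1, WC replicate 2 and BC replicate 3, and of 0.383 with the likelihood ratio test and 0.0585 without TMM factors. At the high end of 6A, the locus 615957981 to 615967893 (no gene) had 378, 475 and 303 reads in WP, 433, 491 and 761 in BP, 663, 770 and 706 in BC and 580, 357 and 404 in WC. WP vs BC gave -1.26 ± 0.21 (SE, edgeR, adjusted p = 7.48e-05) and BC vs WC 1.21 ± 0.21 (adjusted p = 0.00036). The adjusted p in edgeR was 0.138 for WP vs BC without WP replicate 3, and 0.137, 0.0518 and 0.0821 for BC vs WC without WC replicate 2, WC replicate 3 and BC replicate 2. Both adjusted calls were lost with DESeq2 (adjusted p = 0.127 for WP vs BC and 0.139 for BC vs WC) and with the likelihood ratio test (adjusted p = 0.682 and 0.582), and that for BC vs WC also without TMM factors (adjusted p = 0.112).

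A different pattern was no read at all in WC. At 6A 575480787 to 575485152 (no gene) 15, 13 and 19 reads were counted in WP, 1, 11 and 24 in BP and 11, 36 and 28 in BC, against 0 in each WC library. It was at least 17.3-fold higher in WP, 16.6-fold in BP and 36.0-fold in BC than in WC, and edgeR's adjusted p was 0.344, 0.0384 and 0.00893. At 2A 761552214 to 761555615 (no gene) the counts were 11, 26 and 19 in WP, 7, 14 and 12 in BP and 27, 8 and 28 in BC, against 0 in WC, at least 30.0-fold higher in BC (edgeR, adjusted p = 0.0257). At 3A 715016239 to 715016947, 1217 bp from LOC542886 (acetyl-CoA carboxylase 1, the enzyme of the committed step of fatty acid synthesis), they were 7, 0 and 35 in WP, 37, 26 and 38 in BP and 3, 0 and 5 in BC, against 0 in WC. BP was at least 42.5-fold higher than WC (edgeR, adjusted p = 0.00893). At each of these 3 loci the smallest adjusted p went above 0.05 when any 1 WC library was left out, with values of 0.0506 to 0.213. It did so also without BC replicate 2 (0.195) or BC replicate 3 (0.0705) at the 6A locus, without WP replicate 2 (0.0585), BC replicate 1 (0.144) or BC replicate 3 (0.171) at the 2A locus, and without BP replicate 3 (0.158) at the 3A locus. Without TMM factors it was 0.0671 at the 2A locus, and that of BP vs WC was 0.141 at the 6A locus.

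The dehydrin Rab15-like gene LOC123107951 on 5A (611941974 to 611942904), a member of a family of proteins that accumulate under drought and cold, belonged to the same pattern. A locus of 2184 bp at 611941971 to 611944154 covered the whole gene and reached beyond it. It had 7, 3 and 24 reads in WP, 28, 26 and 10 in BP, 20, 10 and 18 in BC and 0 in each WC library, so that WP, BP and BC were at least 12.3-fold, 25.3-fold and 22.9-fold higher than WC. In edgeR's quasi-likelihood test only BP vs WC had an adjusted p below 0.05 (0.0283), which became 0.0898 to 0.124 with a WC library left out and 0.0535, 0.0555, 0.122 and 0.0564 without BC replicate 1, BC replicate 3, BP replicate 2 and BP replicate 3. It was 0.0952 without TMM factors, while BC vs WC passed with DESeq2 (adjusted p = 0.0111) and the likelihood ratio test (adjusted p = 0.0207). Of the other genes the study names, TaSK3 (LOC123190842, 2A) had 5 loci with 27 reads in all and the germin-like protein 8-5 gene (LOC123108510, 5A) 1 locus with 16 reads, too few for a test.

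At other loci WP was the empty group. The locus 4A 665778766 to 665781415 (no gene) had 0 reads in WP, against 19, 51 and 13 in BP, 13, 19 and 20 in BC and 0, 15 and 0 in WC. It was at least 30.1-fold lower in WP than in BP (edgeR, adjusted p = 0.0376), and this adjusted p rose to 0.480, 0.571 and 0.539 without WP replicates 1, 2 and 3, to 0.598 and 0.0588 without BP replicates 2 and 3, and to 0.0659, 0.0611 and 0.101 without BC replicates 1, 2 and 3, and was 0.0883 without TMM factors. The locus 4A 750765030 to 750769419, which overlaps the pseudogene LOC123083643, had 0 reads in WP, against 9, 9 and 12 in BP, 23, 11 and 24 in BC and 20, 32 and 10 in WC. WP was at least 11.5-fold, 25.0-fold and 18.6-fold lower than BP, BC and WC, with edgeR's adjusted p of 0.365, 0.0667 and 0.476, while the comparisons with BP and BC passed with DESeq2 (adjusted p = 0.0333 and 0.00527). Inside LOC123106523, the locus 5A 44123905 to 44125647 had 0 reads in WP, 0, 0 and 3 in BP, 3, 13 and 0 in BC and 43, 8 and 17 in WC, at least 20.0-fold lower in WP than in WC (edgeR, adjusted p = 0.548), with the call lost without WC replicate 1.

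A locus at the edge of a disease resistance gene close to the end of 4A had fewer reads in WP without being empty. The locus 4A 750696408 to 750706875 partly overlaps LOC123088626 (750705500 to 750709576), annotated as disease resistance protein Pik-2-like. This is a family of immune receptors that recognise products of pathogens. Most of the locus lies outside this gene, and the locus also overlaps the pseudogene LOC123084600. It had 39, 47 and 53 reads in WP, 141, 134 and 110 in BP, 133, 122 and 122 in BC and 104, 94 and 69 in WC. The 4 groups were tight, and every WP library lay below every other library. WP was lower than BC by a log2 fold change of -1.81 ± 0.48 and than BP by -1.62 ± 0.48 (SE), both called, but neither passed after adjustment in edgeR's quasi-likelihood test (adjusted p = 0.482 and 0.511) or likelihood ratio test (adjusted p = 0.416 and 0.4996). With DESeq2 both passed (adjusted p = 0.000986 and 0.0123). Disease resistance genes occur as near copies, and reads shared between copies make this count uncertain.

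**Figure D5:**
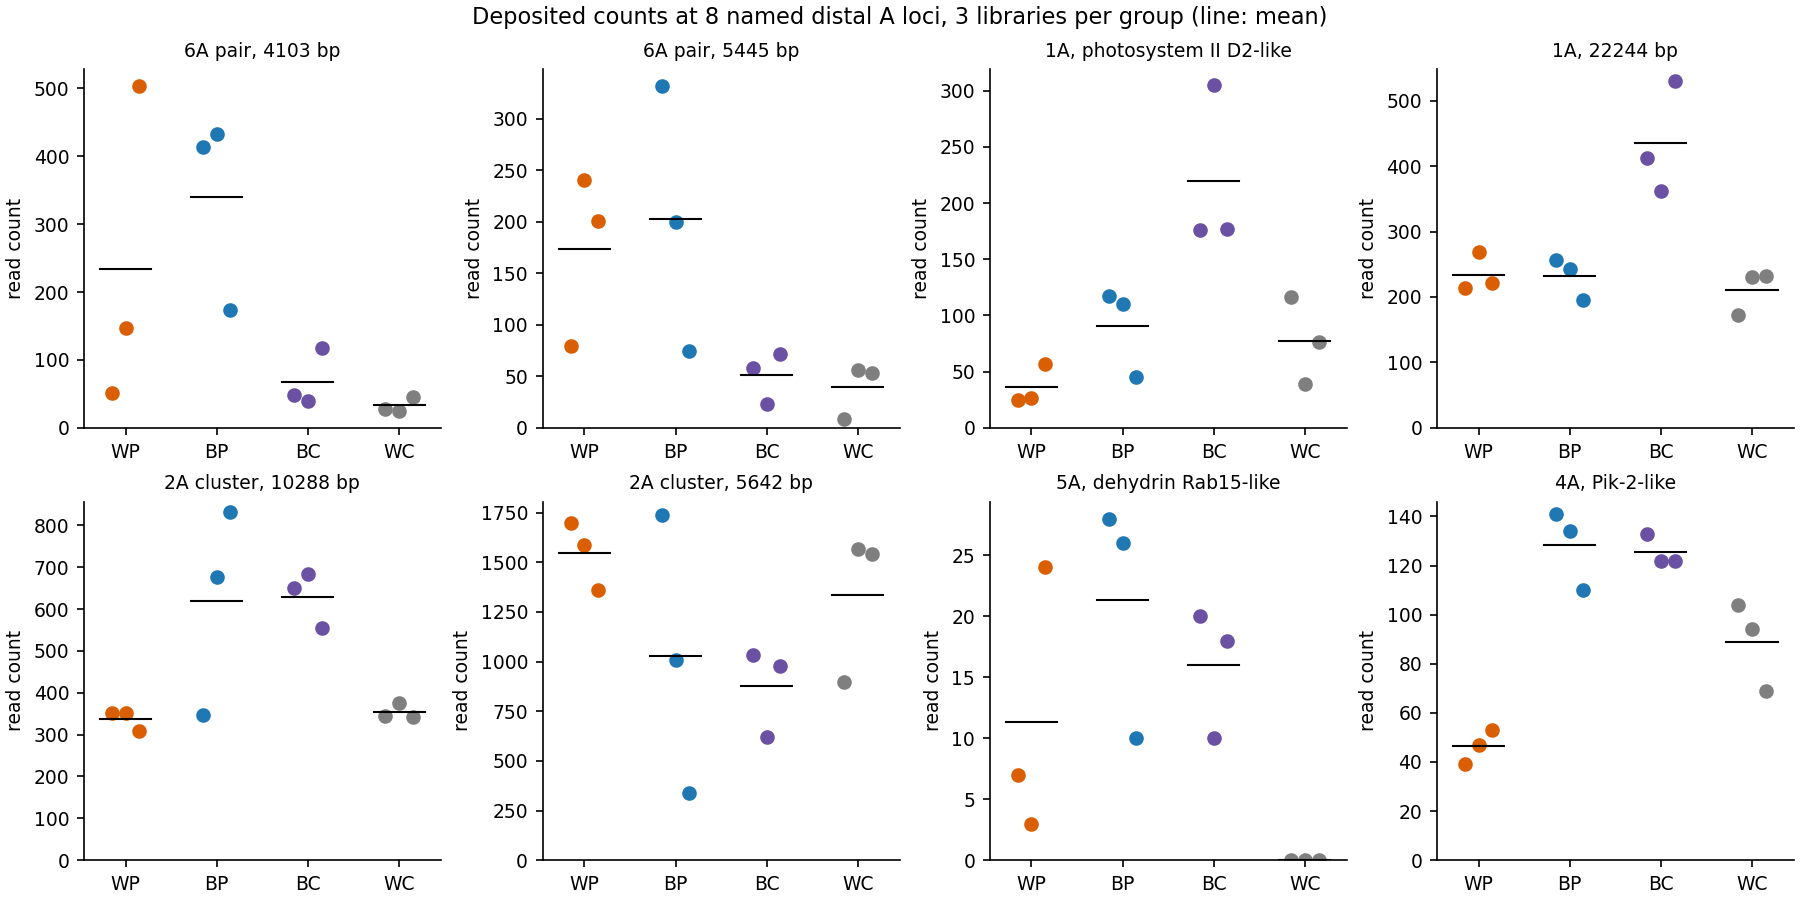
Deposited read counts at 8 distal A loci in WP, BP, BC and WC (points, 3 libraries per group; lines, means), each panel on its own axis from 0. The 6A pair is high in WP and BP, the 1A photosystem II D2-like locus and the 22244 bp locus of 1A are highest in BC, the dehydrin locus is empty in WC, and the Pik-2-like locus is lowest in WP (39 to 53 reads).

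Against WC, 46 distal A loci were called lower with an empty BC group (0.138%, background 0.126%) and 42 with an empty BP group (0.126%, background 0.108%), beside 137 with an empty WP group (0.41%, background 0.373%). The locus 5A 659942201 to 659944937 (no gene, 1937 bp from LOC123108262) had 12, 16 and 29 reads in WP, 21, 1 and 7 in BP, 0 in each BC library and 10, 30 and 9 in WC. BC was at least 11.5-fold lower than WC (edgeR, adjusted p = 0.228, and 0.02935 with DESeq2). The locus 7A 79649026 to 79651636 (no gene) had 13, 11 and 29 reads in WP, 0 in each BP library, 6, 6 and 6 in BC and 21, 29 and 6 in WC, and BP was at least 15.1-fold lower than WC (edgeR, adjusted p = 0.118, and 0.00841 with DESeq2). At 7A 700234245 to 700236279 (no gene) BP was low, with 16, 8 and 7 reads in WP, 4, 4 and 0 in BP, 35, 37 and 27 in BC and 20, 32 and 27 in WC. BP vs BC gave -3.86 ± 1.03 (SE, edgeR, adjusted p = 1.0).

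Inside or across the edge of genes, 2 loci were empty in BC and 1 was high in part of WP. Only the locus on 2A lay wholly inside its gene, and the others lay mostly outside theirs. At 2A 14938321 to 14939749, inside LOC123186995, 3, 3 and 22 reads were counted in WP, 5, 4 and 1 in BP, 0 in BC and 33, 12 and 4 in WC (BC at least 11.0-fold lower than WC, edgeR, adjusted p = 0.337, and 0.0471 with DESeq2). At 5A 707052365 to 707053026, across the edge of LOC123108559, the counts were 0, 15 and 20 in WP, 9, 2 and 25 in BP, 0 in BC and 24, 4 and 0 in WC (BP at least 11.5-fold higher than BC, edgeR, adjusted p = 1.0). The call at the first was lost without WC replicate 1 or any 1 BC library, and that at the other without BP replicate 3. A locus at the edge of LOC123081822 (4A 100170351 to 100172667), annotated as a class I heat shock protein-like gene, which encodes a small chaperone, had 48, 28 and 0 reads in WP, 0, 0 and 3 in BP, 6, 0 and 3 in BC and 5, 16 and 14 in WC. Its groups WP and BP overlapped, and the call for WP vs BP (4.25 ± 1.49, SE, edgeR, adjusted p = 0.631) was lost without WP replicate 1 or 2 or without BP replicate 1 or 2.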

How the data were processed

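The libraries were made by MeDIP and paired-end sequencing. According to the study's methods and processing notes, reads were trimmed with Trim Galore and cutadapt, aligned with BWA to IWGSC CS RefSeq v2.1, and covered sections were counted with bedtools, with no versions given in the sources used here. The values are whole-number counts of reads per locus, deposited by the authors without normalization. Removal of duplicate reads is not named and input libraries were not used here, so copy number and amplification can raise a count. Floors and bounds allow for counting error of the empty group only. Depth was 15812048 to 21355140 reads per library, and few reads per locus limit the precision.

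Loci with over 10 reads in 2 or more of the 3 libraries of some group were tested with edgeR 4.0.16 (TMM, quasi-likelihood, 1 coefficient per group, 12 libraries) in R 4.3.3, with p adjusted over all loci tested. The script was tested on simulated data. Library values were compared with exact permutation tests (Python 3.11.15, numpy 2.4.6, pandas 2.3.3). Alternatives were DESeq2 1.42.0, the likelihood ratio test, other scalings, filters and arm widths (outer 10% or 20%), the 6 libraries alone, a replicate block, each library left out, and a prior count of 2. Gene groups by product name (disease resistance, kinases, polyamine enzymes and others) had been planned but were not built because the annotation used has no product names. Product names printed are those of the study's supplementary tables.

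The members and lists were chosen with earlier results of these data known. Named loci were at most 15 with the smallest p among those with an adjusted p below 0.05, the called locus with the smallest p in each comparison and direction, over all loci and in protein-coding genes, the 5 with the highest mean count, and those in genes the study names.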

Additional observations from a re-analysis of the deposited data

Results flagged for a closer look

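In 16 sets of 6 libraries of 1 light or 1 PUT treatment, the highest or lowest library was compared with its nearest neighbour by Dixon's criterion, which chance exceeds in about 1 of 20 sets. It was exceeded in 3 sets, and each time WC replicate 1 was the library far from the other 5 W light libraries. Its share of nuclear reads in the distal A arms was 8.34%, against 7.58 to 7.85% in the other 5. Its reads per covered distal A locus were 9.67, against 4.90 to 6.58. Its log2 ratio of distal to interior reads per Mb was -0.42, against -0.58 to -0.52. The 3 measures come from the same reads and are not independent. What sets this library apart was not tested.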

How the results depend on the processing

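Called distal A loci, in the order BC, BP and WP vs WC, BP and WP vs BC, WP vs BP and interaction, numbered 980, 1125, 603, 129, 553, 500 and 377. They were 1704, 2155, 1214, 393, 1194, 1261 and 710 with DESeq2, and 1779, 2133, 1631, 488, 1198, 1130 and 966 with the likelihood ratio test. A filter above 5 gave 2168, 2373, 1235, 258, 989, 969 and 2164, no filter 3268, 3249, 1886, 396, 1754, 1518 and 3048, and a filter above 20 gave 123, 157, 50, 22, 123, 77 and 23. RLE size factors gave 783 in WP vs BP. The 6 libraries of a comparison alone gave 230 for WP against WC, and 371 for BP and 989 for WP against BC. The outer 10% held 587, 610 and 335 calls against WC, 345 for WP against BC, 270 against BP and 233 for the interaction, and the outer 20% held 1752 for BP and 906 for WP against WC, 772 in WP vs BP and 574 for the interaction, where fewer or more loci are counted by construction. For the other differences the cause was not tested. Shares over all loci tested are not given for the alternatives of this section or for the fits with a library left out. Changes in these counts can therefore not be assigned to the distal A arms.

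Same-numbered libraries of different groups did not deviate together (correlations -0.09 to 0.14, over 0.1 in 1 of 18 pairs), so the replicate numbers were not taken as pairs. With the replicate number as a block the calls were 616, 686, 324, 80, 312, 253 and 183, and the difference in the log2 ratio of distal to interior reads between PUT and no PUT, -0.10, had an exact permutation p of 0.0556. With 1 library left out the calls ranged from 525 to 1211, 527 to 1406, 393 to 970, 83 to 205, 267 to 757, 174 to 732 and 248 to 622. The difference in read share ranged from 0.266 to 0.449 between B and W light and from -0.523 to -0.339 between PUT and no PUT, where the outer 10% gave -0.372 (exact permutation test, p = 0.0476), and that in the log2 ratio between PUT and no PUT from -0.123 to -0.0855.

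Counting only loci kept by the filter, the share of loci with a count differed by 8.22 between B and W light, and the low end of 4A by 0.0134. These loci reversed the log2 ratio between B and W light (-0.0221), the share of loci with a count between PUT and no PUT (5.15), the reads per covered locus between PUT and no PUT (0.219) and the ratio to distal B (-0.0690). None of the first 3 had passed a test. Leaving out 1 library also reversed the share of loci with a count between PUT and no PUT (-3.09 to 1.63, and 0.451, 1.05, 1.63, 0.580 and 1.23 without WP replicate 2, WP replicate 3, BC replicate 1, BC replicate 2 and BC replicate 3) and the reads per covered locus (-0.949 to 0.155, the last without WC replicate 1). For the leading comparison of each of the 29 named loci, 20 loci stayed on the same side of the call threshold under every alternative, and of 522 values 497 did, 25 no longer passed it and 0 reversed. This threshold uses p before adjustment. Some of the 29 loci were not called in their leading comparison and kept their side by remaining uncalled. Examples are 2A 14221247 (log2 fold change 1.35 in BC vs WC) and 2A 21623607 (0.53 in WP vs BP). The 20 loci and 497 values are therefore not all calls that held. Of 25 named pairs of locus and comparison with an adjusted p below 0.05, 14 kept it with DESeq2, 7 with the likelihood ratio test, 15 without TMM factors, 20 with the block and 25 with RLE size factors.

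Depth limits these results. Few distal A loci reach the filter, and the spread of a single locus does not enter its p or its SE. Over the called loci of a comparison and direction, the median of the mean count in the higher group was about 10 to 15 reads.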
